A study of Mus musculus with 4 samples.

Results

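The collagens are the proteins that give tissues their tensile strength, and every gene whose symbol reads Col, a number, a and a number was taken as a member: 44 of the 54115 genes with transcripts in the files. They were followed in 4 bulk RNA-seq libraries from mouse tumours grown from the injected line MC38, a colon adenocarcinoma line. The 2 control libraries came from tumours of mice that received 10 daily intraperitoneal injections of saline, the vehicle. The 2 treated libraries came from tumours of mice given as many daily injections of vanoxerine, a dopamine reuptake inhibitor, at 25 mg/kg. The mouse strain, sex and age and the site of injection are not stated in the labels, and all 4 libraries carry the same MC38 line. The labels number the libraries 1 and 2 in each group but do not say that they came from separate animals, so the p-values cover the spread between libraries only, and that spread may be technical.

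A collagen molecule is a trimer of alpha chains, each chain the product of its own gene, wound into a triple helix. Fibrillar collagens (types I, II, III, V, XI, XXIV and XXVII) are trimmed outside the cell and pack into fibrils, type IV forms the sheet of basement membranes, and the FACIT collagens (fibril-associated collagens with interrupted triple helices) sit on fibril surfaces. The remaining members include the beaded filaments of type VI, the anchoring fibrils of type VII, the short-chain networks of types VIII and X, the multiplexins XV and XVIII and the membrane-spanning types. In tumours, fibroblasts are a main source of fibrillar collagen, and endothelial and mural cells lay down basement membrane. By this grouping the family held 11 fibrillar, 6 basement membrane, 9 FACIT and 18 other members.

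The libraries held 67289273 to 75748162 estimated reads, and 18758 genes passed the filter on low counts. Of the 44 collagen genes, 35 were tested and 17 of these fell with vanoxerine, none rose and 18 were not called (edgeR quasi-likelihood test, Benjamini-Hochberg adjusted p under 0.05 over all genes tested). Over all genes tested, 15.9% were called lower and 21% higher. Collagen genes with a mean CPM (reads scaled to the library total) of at least 1 numbered 25, of which 17 fell, while 20.2% of all genes at that level were called lower. The median log2 fold change of the tested members was -0.56, against -0.01 for all genes tested, and 28 of the 35 had a value below 0, as did 50.8% of all genes. The 17 that fell did so by 1.25-fold to 2.43-fold, and in each the CPM of both vanoxerine libraries lay below both saline libraries. Over the 35 tested members, 24 had both treated libraries below both controls and 2 above, against 34.9% and 35.8% of all genes. In bulk tissue, fewer cells of a type and less RNA per cell cannot be told apart.

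**Figure D1:**
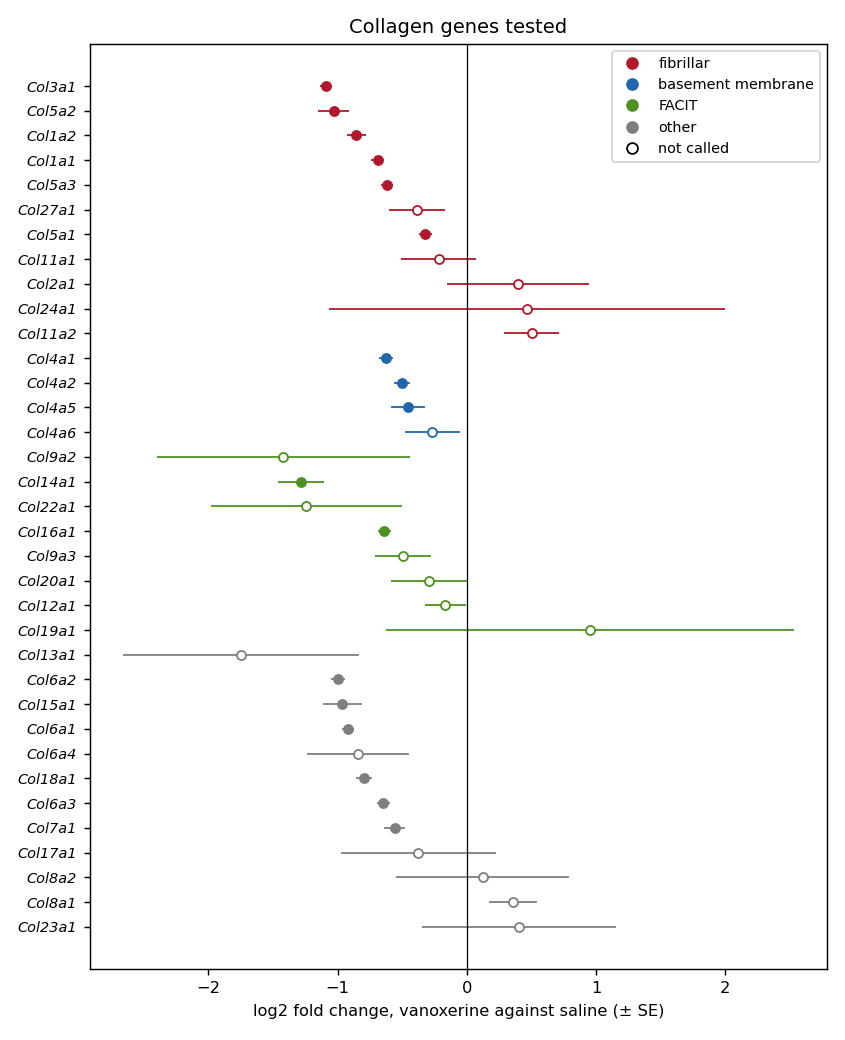
Log2 fold change of vanoxerine against saline (edgeR, bars show the standard error, 2 libraries a group) for the 35 collagen genes tested, grouped by class; filled points are called lower at an adjusted p under 0.05, open points are not called. All 17 filled points lie left of 0, from -0.32 for Col5a1 to -1.28 for Col14a1.

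Among the fibrillar genes, 6 of 11 fell (54.5%, beside 15.9% of all genes tested), and these were all 6 genes of types I, III and V. Col3a1, the single chain of type III collagen, which is found with type I in distensible tissue, had 237 and 230 CPM in saline libraries 1 and 2 and 107 and 112 CPM in vanoxerine libraries 1 and 2. Both treated libraries lay far below both controls, and the fitted level was 2.13-fold lower (log2 fold change -1.09 ± 0.05 SE, edgeR adjusted p = 4.95e-05). Its gene, ENSMUSG00000026043 (GRCm38, chr1:45311538-45349706, plus strand), lies 24614 bases from Col5a2, a chain of type V collagen, which starts fibrils, and the pair was called together. Col5a2 was at 14.7 and 13.2 CPM with saline and 7.09 and 6.56 CPM with vanoxerine (-1.03 ± 0.12 SE, edgeR adjusted p = 0.0014).

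Type I collagen, the main fibril of skin, tendon and bone, is built from chains of Col1a1 and Col1a2. Col1a1 was at 77.5 and 80.2 CPM with saline and 49.8 and 48.0 CPM with vanoxerine (-0.69 ± 0.05 SE, edgeR adjusted p = 0.000275). Col1a2 was at 69.1 and 61.4 CPM with saline and 37.1 and 35.1 CPM with vanoxerine (-0.85 ± 0.08 SE, edgeR adjusted p = 0.000535). Both chains were therefore lower in both treated libraries, with no overlap of the groups. Per transcript length, type I was not the most abundant fibrillar collagen here: Col1a1 stood at 10.6 and 10.1 TPM (reads scaled to transcript length and library total) with saline, below Col5a3 at 21.4 and 20.4 TPM and Col3a1 at 82.6 and 57.9 TPM. The full-length transcript of Col3a1 held only 44.2% of that gene's TPM over the 4 libraries, and stood at 30.8 and 30.8 TPM with saline.

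The other type V chains fell by less than Col5a2. Col5a3, a chain of restricted expression, was at 172 and 171 CPM with saline and 111 and 112 CPM with vanoxerine (-0.62 ± 0.04 SE, edgeR adjusted p = 0.00022). Col5a1, the chain that most type V molecules contain, was at 106 and 108 CPM with saline and 83.8 and 88.0 CPM with vanoxerine. That was the smallest decrease among the 17 called members (-0.32 ± 0.05 SE, edgeR adjusted p = 0.0047), and on the TPM scale its levels of 9.83, 9.61, 8.996 and 9.22 in the same order of libraries were closer still (adjusted p = 0.512 with limma on log2(TPM + 1)).

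The 5 fibrillar genes not called were at 5.07 CPM or less in every library. They were Col2a1, the cartilage fibril chain, Col11a1 and Col11a2 of type XI, Col24a1 and Col27a1. Col11a2 was at 3.74 and 2.89 CPM with saline and 5.07 and 4.33 CPM with vanoxerine, so its groups did not overlap and ran the other way (0.50 ± 0.21 SE, edgeR adjusted p = 0.122). Col27a1 was at 3.22 and 3.07 CPM with saline and 2.30 and 2.52 CPM with vanoxerine (-0.39 ± 0.21 SE, edgeR adjusted p = 0.217).

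**Figure D2:**
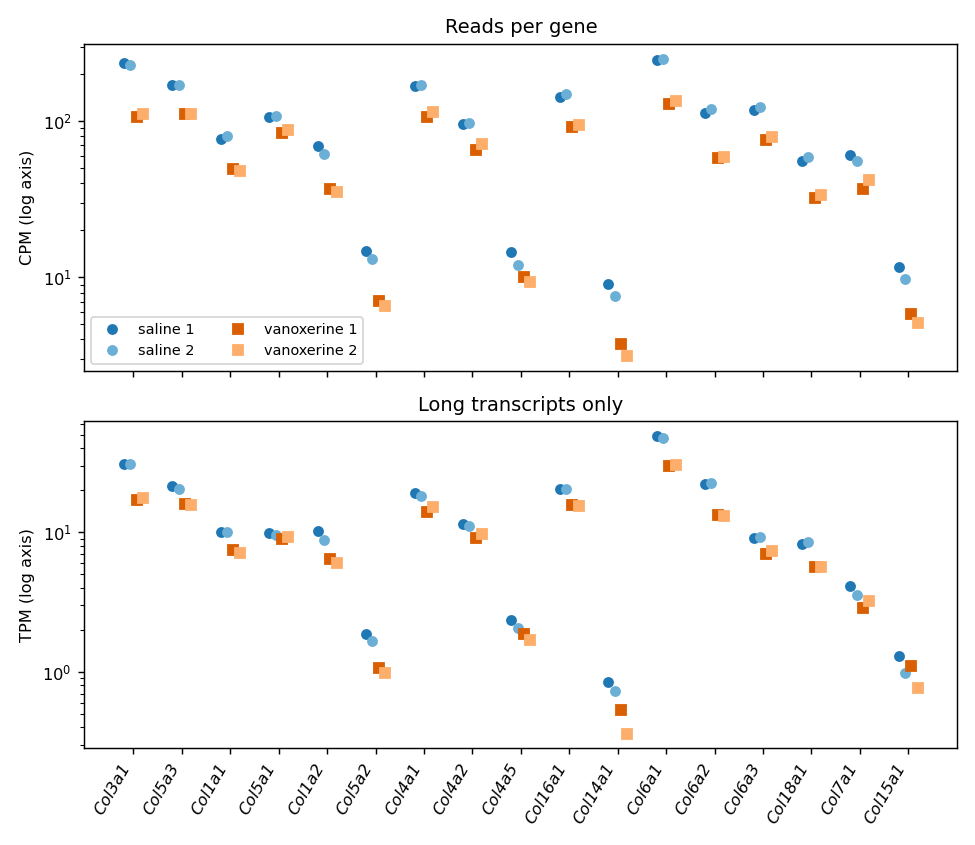
Level of each of the 17 called collagen genes in the 4 libraries (circles saline, squares vanoxerine), as CPM of all reads of the gene in the upper panel and as TPM of its long transcripts in the lower panel, both on log axes and ordered by class. In the upper panel every square lies below both circles of its gene; in the lower panel the groups of Col15a1 overlap.

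Basement membrane collagen is built mainly from the chains of Col4a1 and Col4a2, and both fell. Col4a1 was at 169 and 171 CPM with saline and 106 and 115 CPM with vanoxerine (-0.62 ± 0.05 SE, edgeR adjusted p = 0.00051). Col4a2 was at 96.3 and 97.1 CPM with saline and 65.3 and 71.4 CPM with vanoxerine (-0.50 ± 0.06 SE, edgeR adjusted p = 0.00155). The treated libraries were below the controls for both chains. Per length, Col4a1 led the class, with 26.5 and 26.4 TPM in saline and 18.9 and 18.6 TPM in vanoxerine libraries, against 11.5, 11.1, 9.07 and 9.71 TPM for Col4a2. Col4a5, a chain of the kidney and other specialised basement membranes, was at 14.5, 12.1, 10.1 and 9.28 CPM in the same order, and its call was the weakest of the 17 (-0.46 ± 0.13 SE, edgeR adjusted p = 0.0388). It kept the call in 10 of 16 alternative fits, with adjusted p up to 0.325. Its neighbour Col4a6 was at 4.93, 3.93, 4.02 and 3.35 CPM, with overlapping groups (-0.27 ± 0.21 SE, edgeR adjusted p = 0.377). Col4a3 and Col4a4, the partners of Col4a5 in the kidney filter, had 17 reads or fewer in each library and were not tested.

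The genes Col4a1 (chr8:11198423-11312826, minus strand) and Col4a2 (chr8:11312805-11449287, plus strand) lie head to head, and their annotated first exons overlap by 22 bases, shown here because both genes are transcribed outward from this stretch (GRCm38.p6, plus strand, from RefSeq, with the GC box GGGCGG in capitals).
chr8:11312805-11312826, Col4a1 and Col4a2: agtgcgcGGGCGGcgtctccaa
Upstream sequence was looked at for the rest of the family as well. RefSeq start sites were matched for 35 collagen genes with 38 windows of 250 bases before the start. A GC box (GGGCGG or, on the other strand, CCGCCC) was in 57.9% of the collagen windows, against 32.7% of all 32851 windows of that length. A TATA box (TATAAA or TTTATA) was in 13.2% against 12.4%, and a CCAAT box (CCAAT or ATTGG) in 34.2% against 33.8%. The windows of the following genes are shown because Col3a1 and Col6a2 fell most among the strongly expressed members, Col5a1 fell least of those called, and Col8a1 was not called and had higher CPM with vanoxerine. All are 5' to 3' on the gene's own strand, end at the base before the start site, and have the TATA and GC boxes in capitals. For Col6a2 a second RefSeq start site was matched, whose window (chr10:76623405-76623654) holds 3 GC boxes and lies mostly in an annotated exon of the gene; it is not shown for that reason.
Col3a1, chr1:45311288-45311537, plus strand: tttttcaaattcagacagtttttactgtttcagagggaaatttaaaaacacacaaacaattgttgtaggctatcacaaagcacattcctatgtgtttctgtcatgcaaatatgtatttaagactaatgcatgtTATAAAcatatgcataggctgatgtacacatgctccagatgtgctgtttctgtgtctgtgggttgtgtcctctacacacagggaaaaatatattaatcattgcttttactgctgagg
Col6a2, chr10:76623631-76623880, minus strand: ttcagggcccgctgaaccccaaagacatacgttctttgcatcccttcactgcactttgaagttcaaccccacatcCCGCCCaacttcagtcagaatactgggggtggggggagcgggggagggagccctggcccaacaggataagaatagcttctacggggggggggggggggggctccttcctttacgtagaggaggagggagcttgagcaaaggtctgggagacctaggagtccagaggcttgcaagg
Col5a1, chr2:27886175-27886424, plus strand: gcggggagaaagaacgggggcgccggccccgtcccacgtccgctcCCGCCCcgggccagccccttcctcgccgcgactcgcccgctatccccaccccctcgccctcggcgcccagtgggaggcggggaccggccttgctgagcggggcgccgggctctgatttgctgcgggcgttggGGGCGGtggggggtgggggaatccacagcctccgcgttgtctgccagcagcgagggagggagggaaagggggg
Col8a1, chr16:57754738-57754987, minus strand: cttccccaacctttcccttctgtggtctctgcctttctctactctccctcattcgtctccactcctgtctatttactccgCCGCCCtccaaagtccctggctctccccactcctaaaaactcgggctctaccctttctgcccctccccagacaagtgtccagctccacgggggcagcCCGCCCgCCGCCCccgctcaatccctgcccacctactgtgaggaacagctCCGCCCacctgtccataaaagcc
The Col3a1 window is rich in A and T and holds 1 TATA box and no GC box, while the Col6a2 window shown, and those of Col5a1 and Col8a1, hold 1, 2 and 4 GC boxes and no TATA box. A match was counted anywhere in the 250 bases, whatever its distance from the start site, and is a description of the sequence only.

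Of the FACIT genes, 2 of the 8 tested fell, or 25%. Of all genes tested 15.9% fell. With so few genes, the FACIT count of 2 in 8 does not stand apart from this share. Both FACIT genes that fell had a mean CPM of at least 1, a level at which 20.2% of all genes fell. Col9a2, Col19a1 and Col22a1 lay below that level. Col16a1 (chr4:130047840-130099283, plus strand), which associates with fibrils and with basement membranes, was at 142 and 149 CPM with saline and 92.4 and 94.6 CPM with vanoxerine (-0.64 ± 0.05 SE, edgeR adjusted p = 0.000297). Col14a1, which binds to the surface of type I fibrils, was at 9.07 and 7.64 CPM with saline and 3.74 and 3.13 CPM with vanoxerine. This was the largest fold among the called members, at 2.43-fold lower (-1.28 ± 0.18 SE, edgeR adjusted p = 0.00292). Of the other tested FACIT genes, Col9a3, Col12a1 and Col20a1 had between 1.32 and 6.04 CPM and Col9a2, Col19a1 and Col22a1 at most 0.55 CPM, and Col9a1 was not tested. Col12a1, the FACIT of tendon and of stretched tissue, was at 5.47, 6.04, 5.29 and 4.96 CPM. Its small difference was not called (-0.17 ± 0.16 SE, edgeR adjusted p = 0.459), and it turned to 0.51 with a length offset and 0.41 on the log2(TPM + 1) scale.

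Type VI collagen, which forms beaded filaments around cells, was the most abundant subgroup per length after the fibrillar class, and its 3 widely expressed chains all fell. Col6a1 was at 248 and 251 CPM with saline and 130 and 134 CPM with vanoxerine (-0.92 ± 0.04 SE, edgeR adjusted p = 6.61e-05). Col6a2 was at 113 and 120 CPM with saline and 58.0 and 58.7 CPM with vanoxerine (-0.998 ± 0.05 SE, edgeR adjusted p = 8.97e-05). Col6a3 was at 119 and 123 CPM with saline and 75.9 and 79.0 CPM with vanoxerine (-0.65 ± 0.05 SE, edgeR adjusted p = 0.000331). The controls and treated libraries were well apart for each chain. Col6a1 (chr10:76708792-76726168) and Col6a2 (chr10:76595762-76623630) both lie on the minus strand, and Col6a1 led its class per length with 48.9 and 47.7 TPM in saline and 29.8 and 30.5 TPM in vanoxerine libraries. The other type VI chains were scarce: Col6a4 had 98 reads or fewer in each library and was not called, and Col6a5 and Col6a6 were not tested.

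The remaining called members were single-gene collagens. Col18a1, a basement membrane collagen from which the fragment endostatin is cut, was at 55.8 and 59.1 CPM with saline and 32.4 and 33.6 CPM with vanoxerine (-0.80 ± 0.06 SE, edgeR adjusted p = 0.000306). Col15a1, its closest relative, was at 11.6 and 9.71 CPM with saline and 5.79 and 5.13 CPM with vanoxerine (-0.96 ± 0.15 SE, edgeR adjusted p = 0.00463). Col7a1, the chain of the anchoring fibrils below epithelia, was at 60.5 and 56.0 CPM with saline and 37.1 and 42.0 CPM with vanoxerine (-0.56 ± 0.08 SE, edgeR adjusted p = 0.00345). All of them were lower in both treated libraries, and their order by fold depended on the scale.

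Col8a1, a chain of the short-chain networks under endothelium, had the most reads of the members that were not called. It was at 9.25 and 6.54 CPM with saline and 9.82 and 10.4 CPM with vanoxerine (0.35 ± 0.18 SE, edgeR adjusted p = 0.191). Both treated libraries lay above both controls, as also for Col11a2, and saline library 2 was the lowest of the 4. Without saline library 1, Col8a1, Col11a2 and Col24a1 were called higher. The other members of the mixed class that were tested and not called, Col8a2, Col13a1, Col17a1 and Col23a1 beside Col6a4, stayed at or below 1.38 CPM, and Col10a1, Col25a1, Col26a1 and Col28a1 were not tested.

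Summed TPM, in which levels of different genes can be added, gave the size of the change by class. All collagens together came to 386 and 344 TPM with saline and 236 and 247 TPM with vanoxerine (365 ± 29.8 against 241 ± 7.97, mean ± SD, n = 2). The ratio of the group means was 1.51, and the groups did not overlap. The fibrillar sum was 124 ± 19.9 TPM with saline and 80.1 ± 4.45 TPM with vanoxerine, and the basement membrane sum 40.5 ± 0.64 and 30.4 ± 0.09 TPM (mean ± SD, n = 2). The FACIT sum was 52.7 ± 5.15 with saline and 37.6 ± 3.12 TPM with vanoxerine, and the sum of the others 148 ± 4.1 and 93.1 ± 0.31 TPM. The class ratios thus ran from 1.33 for basement membrane to 1.59 for the others. Over all transcripts, fibrillar genes made up 35.7% and 31.9% of collagen TPM with saline and 32.6% and 33.7% with vanoxerine. The others made up 39.0% and 42.1% against 39.4% and 37.8%, and both shares had overlapping groups. The basement membrane share was higher in both vanoxerine libraries, at 12.9% and 12.4% against 10.6% and 11.7%, as was the FACIT share, at 15.01% and 16.1% against 14.6% and 14.3%. Sums over 2 libraries against 2 were not tested, since an exact two-sided permutation test cannot go below p = 0.333.

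**Figure D3:**
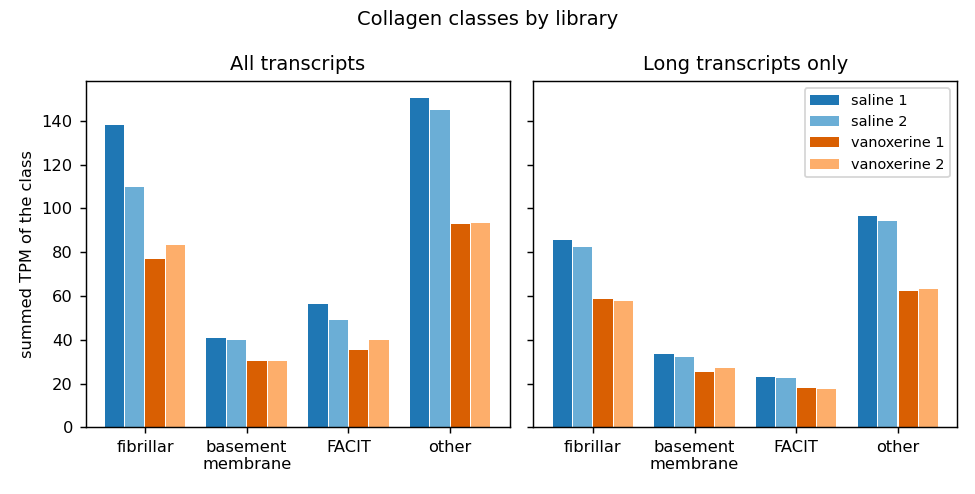
Summed TPM of each collagen class in the 4 libraries, over all transcripts (left) and over transcripts of at least 50% of the length of the gene's longest one (right); bars start at 0. In every class and both panels the 2 vanoxerine bars are below the 2 saline bars, and the totals are lower in the right panel.

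A large part of these TPM sums came from short annotated transcripts, which a few reads can raise because TPM divides by length. For Col3a1, the full-length transcript Col3a1-201 of 5564 bases took 15967, 15156, 6779 and 6701 reads, while Col3a1-205, a model of 737 bases, took 1924, 1227, 635 and 546. Per length the short model was nonetheless at 40.7, 27.1, 17.5 and 15.7 TPM, beside 30.8, 30.8, 17.0 and 17.6 TPM for the full-length one. A second short model, Col3a1-207 of 431 bases, was at 11.01, 0, 0 and 9.07 TPM, on 200, 0, 0 and 123 reads. The difference between the saline libraries thus lay in these 2 short models, and Col3a1-201 and Col3a1-205 had lower TPM in both vanoxerine libraries. The retained-intron model Col6a3-206 (646 bases) held 65.5% of the TPM of Col6a3 but 9.3% of its reads, and Col7a1-208 (525 bases) held 62.7% of the TPM of Col7a1 but 8.4% of its reads. In the FACIT class, Col16a1-207 (833 bases) held 47.7% of the TPM of Col16a1 but 12.1% of its reads. With only the long transcripts, the collagen total was 238.5 and 231 TPM with saline and 164 and 165.5 TPM with vanoxerine (ratio 1.43), and saline libraries 1 and 2 came closer together. The share of the others then did not overlap, at 40.4% and 40.8% with saline and 37.9% and 38.3% with vanoxerine. The fibrillar share still overlapped between groups. The FACIT share was lower than over all transcripts, at 9.70% and 9.83% with saline and 10.9% and 10.5% with vanoxerine. It was still higher in both vanoxerine libraries.

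The genes whose call depended on the scale were of both kinds. Of the 17, 10 were also called lower by limma on log2(TPM + 1), a scale on which the median of all genes moved to 0.13 and 4.64% of all genes were called lower and 21.8% higher. Col3a1, Col4a2, Col4a5, Col5a1, Col5a2, Col15a1 and Col18a1 were not. Reads of Col4a2, Col5a1 and Col5a2 came from a single transcript each. In Col15a1 the model Col15a1-203 (1755 bases) took 250, 222, 0 and 55 reads. Col15a1-207 (405 bases) took 12 reads in vanoxerine library 1 only, which came to 1.04 TPM there. In Col18a1 the model Col18a1-205 (675 bases) took 115, 0, 0 and 27 reads. Short models of Col15a1 and Col18a1 thus varied between libraries of 1 group. In Col4a5 the estimate moved between nearly equal models, with 562, 196, 0 and 0 reads on Col4a5-201 and 296, 379, 551 and 490 on Col4a5-202. For Col12a1, Col12a1-204 (1784 bases) had 0, 0, 64 and 63 reads, and its full-length transcript 398, 419, 298 and 253. With an offset for transcript length in edgeR, 15 of the 17 were called lower (Col4a5 and Col15a1 were not), where 9.07% of all genes were.

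Chains that assemble into 1 trimer were then set against each other within each library, a ratio that does not depend on scaling between libraries. The ratio of Col1a1 to Col1a2 in TPM was 1.04 and 1.14 with saline and 1.16 and 1.16 with vanoxerine, and that of Col6a1 to Col6a2 was 2.19 and 2.10 with saline and 2.24 and 2.31 with vanoxerine. These shifts were small beside the fall of the genes themselves. Col4a1 to Col4a2 went the other way, from 2.30 and 2.38 to 2.08 and 1.92. The ratio of Col5a1 to Col5a2 differed most, with 5.24 and 5.75 with saline and 8.37 and 9.32 with vanoxerine. Col6a3 to Col6a1 overlapped between groups over all transcripts, at 0.752, 0.746, 0.814 and 0.705, and was higher with vanoxerine over long transcripts, at 0.187, 0.193, 0.235 and 0.240. Col8a1 to Col8a2 overlapped, at 20.0, 17.8, 38.3 and 15.9, and rests on 42 reads or fewer of Col8a2 in each library. None of these ratios was tested.

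**Figure D4:**
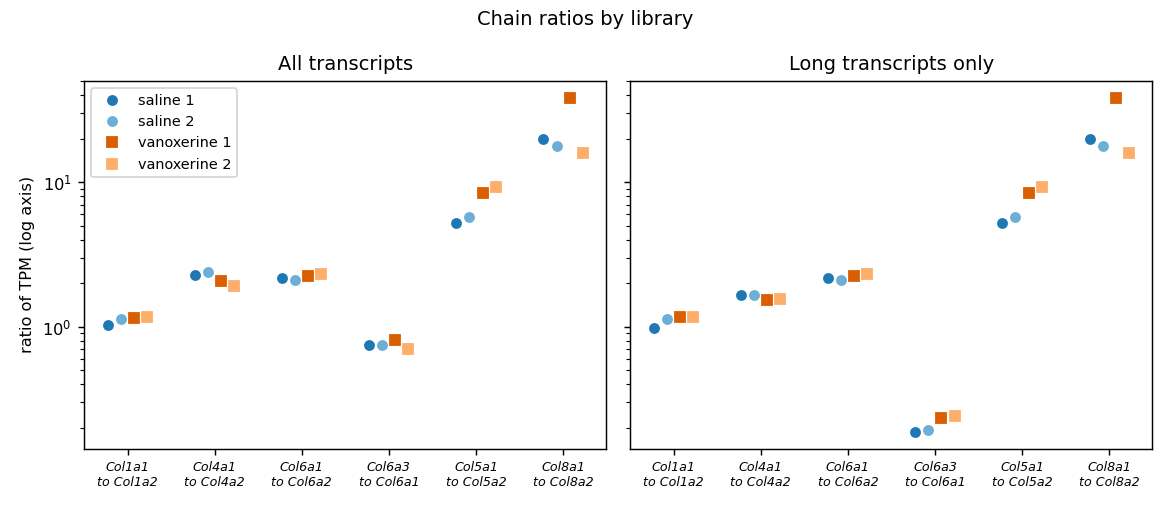
Ratio of TPM between chains that share a trimer, per library (circles saline, squares vanoxerine), over all transcripts (left) and long transcripts (right), on a log axis. The Col5a1 to Col5a2 ratio has both squares above both circles in both panels, while the Col6a3 to Col6a1 ratio separates the groups in the right panel only.

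Collagen genes often lie beside each other, and 12 pairs of members were less than 1000000 bases apart. In 5 pairs both genes were called lower: Col3a1 with Col5a2, Col4a1 with Col4a2, and Col6a1, Col6a2 and Col18a1 on chromosome 10 with each other. The log2 fold changes within these pairs differed by a median of 0.12 and at most 0.20, beside a median of 0.28 over all 136 pairs of called members. These pairs share genes, are among the 136 and include partner chains of types IV and VI. The difference was not tested, so it does not show that neighbours change together. Exons of 6 of the 17 called members overlap exons of another gene, over at most 2.5% of their exonic bases, and the library kit does not mark strand, so reads of that stretch cannot be assigned with certainty.

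The authors' deposited table of the same contrast, for which the libraries used are not stated, listed 39 of the 44 members, 5 of them with no adjusted p. By the authors' deposited table, 19 members were lower at an adjusted p under 0.05 and none higher, and 12% of all its genes were lower. All 17 members called here were among them, and Col22a1 and Col26a1 were added. Both had few reads in saline libraries 1 and 2 and vanoxerine libraries 1 and 2. Col22a1 had 42, 24, 8 and 17 and was not called here, and Col26a1 had 54, 3, 5 and 8 and was not tested. The log2 fold changes in the authors' deposited table were further from 0 for Col5a1 (-0.57), Col6a3 (-0.88) and Col7a1 (-0.86) than in the main fit here, and close to it for Col3a1 (-1.05) and Col6a1 (-0.90). With the length offset, the fit here gave -0.90 for Col6a3 and -0.89 for Col7a1, but -0.33 for Col5a1. For some scarce members the authors' values were nearer to 0, as for Col13a1 (-0.21 against -1.75 here) and Col22a1 (-0.37 against -1.24).

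Genes whose products act on collagen were looked at by their place in its life cycle. Counts from the main edgeR fit are read beside the 15.9% lower and 21% higher of all genes tested. Those on the log2(TPM + 1) scale are read beside 4.64% lower and 21.8% higher. Those with the length offset are read beside 9.07% lower and 13.9% higher. Inside the cell, enzymes hydroxylate the chains and chaperones fold and export them: 13 of 24 such genes fell, 4 rose and 7 were not called, with a median log2 fold change of -0.39 beside -0.01 for all genes. Serpinh1, the collagen-specific chaperone Hsp47, was at 171 and 160 TPM with saline and 121 and 122 TPM with vanoxerine (-0.93 ± 0.04 SE, edgeR adjusted p = 4.95e-05). P4ha2, a prolyl hydroxylase subunit, and Fkbp10, a prolyl isomerase, fell as well (-0.82 and -0.49). Plod1, a lysyl hydroxylase, rose from 19.8 and 19.5 TPM to 38.1 and 40.0 TPM (0.66 ± 0.06 SE, edgeR adjusted p = 0.000449). On the log2(TPM + 1) scale 4 of the 24 were lower and 3 higher, and with the length offset 12 and 1.

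Outside the cell, propeptides are cut off and fibrils cross-linked: 6 of 12 tested genes fell and none rose. On the log2(TPM + 1) scale 3 were lower and 1, Adamts14, higher. Pcolce, the enhancer of the C-propeptide protease, was at 403.5 and 434 TPM with saline and 259 and 260 TPM with vanoxerine (-0.82 ± 0.05 SE, edgeR adjusted p = 0.000128). The collagen-binding glycoprotein Sparc (-0.81), the C-propeptide protease Bmp1 (-0.63) and the N-propeptide protease Adamts2 (-1.61) fell too, and Tll2 had no reads. Of the proteoglycans and glycoproteins that sit on fibrils, 7 of 11 tested fell and none rose, with a median of -1.77, and 4 were lower on the log2(TPM + 1) scale. Decorin (Dcn) was at 42.9 and 42.7 TPM with saline and 26.9 and 26.6 TPM with vanoxerine (-0.93 ± 0.05 SE, edgeR adjusted p = 8.93e-05). Dermatopontin (Dpt) went from 3.88 and 3.52 to 0.48 and 0.416 TPM (-3.29 ± 0.21 SE, edgeR adjusted p = 0.000153), beside -1.28 for Col14a1, the lowest value among the called collagens. Biglycan (Bgn, -1.29) and Prelp (-2.47) also fell, and Kera had no reads.

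Non-collagen basement membrane components showed 9 of 17 tested lower and none higher, with a median of -0.42, and 5 were lower on the log2(TPM + 1) scale. Nidogen 1 (Nid1), which links the laminin and type IV networks, was at 2.82 and 2.71 TPM with saline and 0.964 and 0.907 TPM with vanoxerine (-1.81 ± 0.10 SE, edgeR adjusted p = 8.93e-05). Agrin (Agrn, -0.51), the laminin chain Lamb2 (-0.64) and perlecan (Hspg2, -0.42) fell as well. Lamb2 overlapped between groups in TPM, at 14.9, 18.5, 15.8 and 11.5, and was not called with the length offset (edgeR adjusted p = 0.122) or on the log2(TPM + 1) scale (limma adjusted p = 0.356).

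Genes of collagen breakdown and uptake moved both ways, with 7 of 14 tested higher and 4 lower (6 and 3 on the log2(TPM + 1) scale). These counts include the metalloprotease inhibitors Timp1 (-0.72) and Timp3 (-1.31), called lower, and Timp2 (0.56), called higher. Mrc1, the mannose receptor, which takes up collagen fragments, was at 4.76 and 3.58 TPM with saline and 53.7 and 54.3 TPM with vanoxerine (3.55 ± 0.07 SE, edgeR adjusted p = 6.48e-06). Ctsk, a cathepsin that cuts the triple helix, rose by 2.52 and the collagenase Mmp13 by 1.73 on the log2 scale, while the gelatinase Mmp2 fell from 12.5 and 11.03 to 3.84 and 3.41 TPM (-1.49 ± 0.09 SE, edgeR adjusted p = 0.00013). Of 11 collagen receptors 3 rose and 3 fell: the leukocyte receptor Lair1 (1.93), Itga1 (0.83) and Itgb1 (0.18) were called higher and Ddr2 (-0.42) was among those lower. On the log2(TPM + 1) scale 3 receptors were higher and none lower, and with the length offset 3 and 1, so the lower calls depended on the scale. Ddr2 overlapped between groups in TPM, at 20.9, 18.5, 18.3 and 19.1. Proteins with a collagen-like stretch that are not collagens had 9 of 22 tested higher and 3 lower. P-values were smallest for the complement chains C1qa (3.16), C1qc (3.12) and C1qb (2.76) and the scavenger receptor Msr1 (2.01), which macrophages express. Marco, another scavenger receptor, rose by more (6.37), from 0.06 and 0.05 TPM with saline to 5.76 and 7.27 TPM with vanoxerine. Mbl1, Mbl2, Gldn and Sftpd of this list had no reads. On the log2(TPM + 1) scale 8 of the 22 were higher and none lower, and with the length offset 7 and 1.

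**Figure D5:**
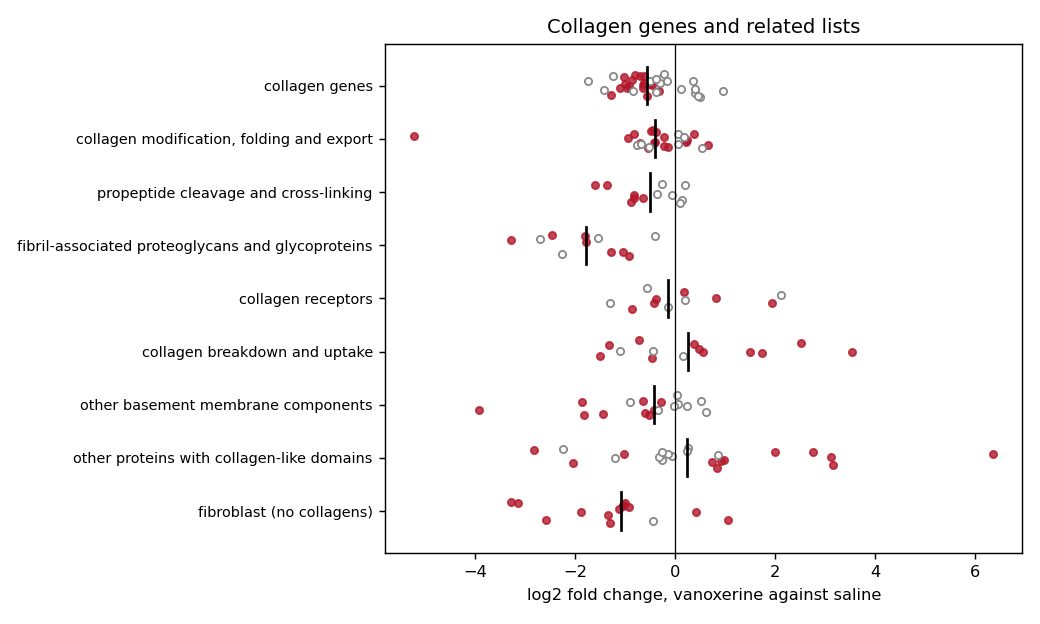
Log2 fold change (vanoxerine against saline, edgeR) of the tested genes of the collagen family, of 7 lists of genes related to collagen and of fibroblast markers; red points are called at an adjusted p under 0.05, open points are not, and the black bar is the median of the list. The fibril-associated list has the lowest median (-1.77), and the breakdown list, which includes the Timp inhibitors, has red points on both sides of 0.

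Marker genes of cell types that make collagen, and of macrophages, also differed between the groups, and their part in the collagen result was not tested. Their counts are read beside the 15.9% lower and 21% higher of all genes tested. Genes said to lead a list have its smallest edgeR p-values. Of 14 fibroblast markers other than collagens, 11 fell and 2 rose (median -1.08), among them Dcn and Dpt above and Postn (-1.34), while Pdpn rose (1.06). Their summed level went the other way, from 358 and 371 to 450 and 458 TPM, and Thy1, which T cells also express, made up 238, 256, 370 and 379 TPM of it. Of 9 mural cell markers 4 fell and none rose, led by Mcam (-1.15) with Des (-0.98), Rgs5 (-1.74) and Acta2 (-0.58), and the sum went from 16.3 and 17.5 to 10.4 and 9.53 TPM. Of 12 endothelial markers 7 fell, led by Plvap (-2.02), Cdh5 (-1.05) and Esam (-1.90), and Pecam1 rose (0.87); the sum was 67.2, 61.4, 49.1 and 58.3 TPM. All 10 macrophage markers rose, led by C1qa, C1qc, C1qb and Mrc1, and the sum went from 829 and 836 to 4145 and 4112 TPM. On the log2(TPM + 1) scale 4.64% of all genes were lower and 21.8% higher. There, 10 fibroblast, 3 mural, 6 endothelial and no macrophage markers were lower. Higher on that scale were 2 fibroblast, 1 endothelial, all 10 macrophage and no mural markers.

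Other tissues that a tumour sample can include were checked in the same way. The labelled adenocarcinoma was weakly marked: the sum of 10 epithelial markers was 5.84 and 6.41 TPM with saline and 13.3 and 12.6 TPM with vanoxerine, with Cdh1 (1.09), Epcam (1.03) and Krt19 (1.69) higher, Cldn4 lower (-1.83) and Krt20 at 0.215 TPM or less. Skeletal muscle markers summed to 38.2 to 59.97 TPM over the 4 libraries, with Acta1 (-0.83) and Myh1 (-1.68) lower and Myh4 higher (0.88). Of the adipocyte markers Fabp4 (-0.84) and Cfd fell, Cfd to 0 reads in both treated libraries, and Lep had no reads. Keratinocyte markers summed to 4.30 TPM or less, with Krt10 lower (-1.12) and Krt5 at 0 reads. Schwann cell markers summed to 4.40 TPM or less, with Mbp (1.10) and Sox10 higher, and cartilage and bone markers to 0.478 TPM or less, with Matn3 higher from no reads in either saline library. The part of these tissues in the collagen result was not tested.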

How the data were processed

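Frozen MC38 tumours were compared by RNA-seq, with 2 libraries per group, each of 67289273 to 75748162 reads. Per the labels' protocols total RNA was used with the TruSeq RNA v2 kit, and per the submitters' processing notes fastp, Salmon 1.3.0 and DESeq2 were run on build GRCm38; their settings and annotation are not stated in the labels or headers. Per the file headers the authors deposited, for each transcript, Salmon's estimated count and its TPM, and in the authors' comparison table a log2 fold change with a p-value. That table has 4 per-library columns that match no sample and were not used.

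Transcripts were assigned to genes with GENCODE M21 (139791 of 140992 matched, 99.56% to 99.63% of reads). Estimated counts were summed per gene and rounded. Genes passing filterByExpr (minimum count 10, minimum total 15) were fitted with edgeR 4.0.16 in R 4.3.3, with TMM factors, the quasi-likelihood test and Benjamini-Hochberg adjustment over all genes tested, calling at 0.05; the procedure was tested on simulated data. SE is the log2 fold change divided by the root of F. CPM uses TMM-scaled totals. Long transcripts have at least 50% of the length of the longest. Alternatives used limma 3.58.1 and DESeq2 1.42.0. Counting error at this depth is small for called members; members under 1 CPM are imprecise. Same-numbered libraries were not paired.

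The members and lists were chosen with earlier results of these data known. Values in every library are given for called members with a mean of at least 5 CPM, the leading member of each class and the chains compared; of each list, up to 4 called genes with the smallest p and those with no reads are named; transcripts are named where the call or direction depended on length. Genes named outside that rule were chosen after their values were seen. Gene positions are from GENCODE M21 and promoter windows from RefSeq on GRCm38.p6.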

Additional observations from a re-analysis of the deposited data

How the results depend on the processing

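The count of collagen genes called lower was 17 with each of the other scalings and tools run on counts (DESeq2 size factors, upper quartile, library totals, no or a stricter filter, DESeq2's Wald test, limma-voom, protein-coding genes only), and the same 17 genes were called each time. A length offset gave 15, where 9.07% of all genes were called lower. With limma on log2(TPM + 1) and on log2(TPM + 0.1) it was 10, the fibrillar count was 3 and the basement membrane count 1; the median of all genes moved to 0.13 and 0.21 on these scales. Upper-quartile factors moved that median to -0.14. Among these alternatives, the share of all genes called is given only for the length offset and log2(TPM + 1). The other counts, and those for fits without 1 library, therefore describe the members only. Leaving out 1 library at a time gave 15 to 19 called lower and 0 to 3 called higher (fibrillar lower 5 to 6 and higher 0 to 2, basement membrane lower 2 to 3, FACIT lower 2 to 3, others lower 6 to 9 and higher 0 to 1), with the lone library assumed to vary like the other group. Col4a5 and Col5a1 were lost without either vanoxerine library and Col4a5 without saline library 1; Col13a1, Col28a1 and Col6a4 were added without saline library 1 and Col26a1 and Col9a3 without saline library 2. The replicate block left 17 called lower; deviations of same-numbered libraries correlated at -0.04 over 9871 genes, so the numbers were not taken as pairs.

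On CPM in place of TPM the log2 ratios of the sums were -0.72 for all collagens, -0.57 for basement membrane, -0.64 for FACIT and -0.80 for the others. The sum of the others was -0.59 with protein-coding transcripts, and with long transcripts, an alternative chosen after seeing the data, -0.60, with basement membrane at -0.32. Leaving out 1 library gave -0.68 to -0.51 for all collagens, -0.78 to -0.45 for fibrillar, -0.43 to -0.40 for basement membrane, -0.58 to -0.38 for FACIT and -0.69 to -0.64 for the others. The log2 change of the ratio of Col4a1 to Col4a2 was -0.12 in reads and -0.089 over long transcripts, and that of Col6a3 to Col6a1 was 0.28 in reads, 0.39 over protein-coding and 0.32 over long transcripts. Leaving out 1 library gave 0.024 to 0.16 for Col1a1 to Col1a2, -0.28 to -0.17 for Col4a1 to Col4a2, 0.61 to 0.76 for Col5a1 to Col5a2, 0.06 to 0.11 for Col6a1 to Col6a2, -0.088 to 0.12 for Col6a3 to Col6a1 and -0.25 to 1.02 for Col8a1 to Col8a2. The causes of these differences were not tested. Groups of 2 libraries limit every value here.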
